A study of Mus musculus with 18 samples.

Results

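The sterol ring arm of cholesterol synthesis turns squalene into cholesterol, and 9 of its enzyme genes were followed here: Sqle, Lss, Cyp51, Tm7sf2, Msmo1, Nsdhl, Hsd17b7, Sc5d and Dhcr7. They were taken by symbol from a table of 15596 symbols, and all 9 were present and passed the filter on low counts in every comparison. The samples were MC38, a mouse colon adenocarcinoma line that grows in C57BL/6 mice, as 3 KD and 3 WT cell libraries and 5 KD and 5 WT tumor libraries. KD means the genotype labelled Mbtps1 KD and WT the genotype labelled Mbtps1 WT; tumors grew in wild-type C57BL/6 mice, and neither ages nor further alleles or agents are in the labels used here. The sample labels say knockdown while the series text says knockout for the cells, and the way the depletion was made and the number of clones are not given in the sources read here. A tumor library holds RNA of the host's cells beside that of MC38, so fewer cells of a type and less RNA per cell cannot be told apart.

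Cholesterol is built from acetyl-CoA through mevalonate to squalene, which is oxidised, closed into lanosterol and then trimmed to cholesterol in the endoplasmic reticulum. Transcription of the pathway is driven by SREBP2, a membrane-bound factor that SCAP escorts to the Golgi when sterols are low and INSIG proteins hold back when sterols are high. In the Golgi, site-1 protease, the product of Mbtps1, makes the first of the cuts that free the active factor. NF-Y, which binds CCAAT boxes, is a known partner of SREBP at many sterol gene promoters.

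Mbtps1 itself, the gene named in the labels, had 37.0, 35.7 and 34.8 CPM (read counts scaled to a common library total) in KD cells, against 129, 135 and 118 CPM in WT cells. In tumors it had 50.1, 41.4, 57.1, 56.3 and 54.1 CPM in KD, against 114, 110, 130, 129 and 122 CPM in WT. The groups did not overlap in either setting, and the log2 change was -1.84 (SE 0.09, adjusted p = 3.1e-06) in cells and -1.21 (SE 0.09, adjusted p = 1.156e-05) in tumors. Unless another setting or tool is named, p-values are from edgeR's quasi-likelihood test, two-sided, with Benjamini-Hochberg adjustment over all genes tested and a threshold of 0.05. Library totals lay between 14240353 and 15515405 counts in cells and between 19630410 and 32655739 in tumors. Whether replicates were separate cultures or separate animals is not in the labels, so every p-value here rests on library-to-library spread that may be partly technical. Among WT cells, replicate 3 stood apart for these genes, with a summed level of 790 CPM over the 9 enzymes, against 963 and 940 CPM in replicates 1 and 2. A symbol at 0 throughout one setting may have been set to 0 or left out there before deposit. Of the 15596 symbols, 2582 were at 0 in all cell libraries and 322 in all tumor libraries, and no other symbol summed to fewer than 13 reads over the cell libraries or 15 over the tumor libraries. Of the epithelial markers looked up, Epcam, Cdh1 and Krt20 were listed at 0 in all 6 cultured libraries, and Krt8 was at 1.26 to 3.76 CPM there and listed at 0 in all 10 tumors. These markers therefore could not check the epithelial label of the line.

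The enzymes act in the following order, with GRCm38 positions. Sqle (chromosome 15, 59315077 to 59331192, plus strand) encodes squalene epoxidase, which adds the oxygen that the ring closure needs and is a rate-limiting step of the pathway. Lss (chromosome 10, 76531588 to 76557138, plus strand) encodes lanosterol synthase, which closes the 4 rings. Cyp51 (chromosome 5, 4081145 to 4104746, minus strand) encodes the cytochrome P450 that takes off the C14 methyl group of lanosterol. Tm7sf2 (chromosome 19, 6062821 to 6068373, minus strand) encodes a C14 sterol reductase whose step can also be done by the lamin B receptor Lbr.

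The C4 methyl groups are then removed by a complex of 3 enzymes. Msmo1 (chromosome 8, 64718139 to 64733792, minus strand) encodes the C4 methyl oxidase. Nsdhl (chromosome X, 72918557 to 72958514, plus strand) encodes the decarboxylating dehydrogenase, and Hsd17b7 (chromosome 1, 169949535 to 169969241, minus strand) the keto reductase. Sc5d (chromosome 9, 42251595 to 42264256, minus strand) encodes the C5 desaturase, and Dhcr7 (chromosome 7, 143823145 to 143848410, plus strand) the reductase that turns 7-dehydrocholesterol into cholesterol. Exons of Cyp51 share 166 bases with Akap9 on the opposite strand and those of Lss 381 bases with an antisense gene. Those of Tm7sf2 share 532 bases with Vps51 on the same strand. Reads in shared bases could be credited to either gene or to neither. No member had counts identical to those of another symbol.

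Promoter windows of 300 bases, from 250 bases before to 50 bases after the annotated start, were found in RefSeq (GRCm38.p6) for 8 of the 9 genes, in 10 windows because Dhcr7 has 3. Sqle was not matched. The last 50 bases of the windows of Sc5d, Lss and Nsdhl were not found in a GENCODE M21 transcript of the gene. The Tm7sf2 window lies wholly inside the gene span given above. The windows of Cyp51, Msmo1 and Nsdhl are shown as promoters of enzymes that were lower in KD cells and higher in KD tumors, and the window of Tm7sf2 as that of an enzyme that passed neither test. Capitals mark each CCAAT, the NF-Y box, and each TCACNNCA, a loose form of the sterol regulatory element, on either strand. Positions are chr5:4104648-4104947 for Cyp51, chr8:64733529-64733828 for Msmo1 and chr19:6067801-6068100 for Tm7sf2, all minus strand, and chrX:72918271-72918570, plus strand, for Nsdhl.
Cyp51: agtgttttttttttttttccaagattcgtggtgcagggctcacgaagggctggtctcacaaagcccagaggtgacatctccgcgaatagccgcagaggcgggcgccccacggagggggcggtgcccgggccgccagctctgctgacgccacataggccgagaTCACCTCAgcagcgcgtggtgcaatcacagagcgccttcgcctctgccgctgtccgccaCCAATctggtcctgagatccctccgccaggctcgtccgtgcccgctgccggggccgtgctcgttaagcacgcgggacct
Msmo1: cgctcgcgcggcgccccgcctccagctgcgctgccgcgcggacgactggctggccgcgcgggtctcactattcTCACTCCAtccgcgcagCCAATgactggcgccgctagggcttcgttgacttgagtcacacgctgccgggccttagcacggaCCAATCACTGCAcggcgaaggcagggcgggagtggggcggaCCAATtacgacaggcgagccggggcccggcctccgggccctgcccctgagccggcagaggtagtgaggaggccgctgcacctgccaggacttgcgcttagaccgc
Nsdhl: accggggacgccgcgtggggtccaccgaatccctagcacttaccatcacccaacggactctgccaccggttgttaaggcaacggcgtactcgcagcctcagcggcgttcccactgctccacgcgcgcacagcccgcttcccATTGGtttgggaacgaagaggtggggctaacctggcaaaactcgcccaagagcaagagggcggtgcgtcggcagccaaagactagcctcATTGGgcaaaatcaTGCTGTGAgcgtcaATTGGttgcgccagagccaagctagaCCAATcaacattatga
Tm7sf2: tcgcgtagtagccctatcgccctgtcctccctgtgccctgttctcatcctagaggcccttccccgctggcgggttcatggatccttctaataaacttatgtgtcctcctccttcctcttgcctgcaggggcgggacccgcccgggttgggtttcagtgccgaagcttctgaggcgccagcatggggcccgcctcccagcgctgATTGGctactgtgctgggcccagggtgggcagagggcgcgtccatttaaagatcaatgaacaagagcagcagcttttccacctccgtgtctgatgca

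A CCAAT box, read on both strands, was in 8 of the 10 windows, with at least 1 for each of the 8 matched genes, and in 37.4% of the 32851 mouse windows of the same length. TCACNNCA was in 7 of the 10 windows, from 6 genes (Hsd17b7, Cyp51, Dhcr7, Msmo1, Sc5d and Nsdhl), not in those of Lss or Tm7sf2, and in 13.8% of all windows. Lss, whose window is not shown, was also lower in KD cells and higher in KD tumors. Sc5d, whose window is not shown either, passed neither test, as did Tm7sf2. The windows shown therefore do not stand for all 8 matched genes in this motif. In Msmo1 a CCAAT and a TCACNNCA match lie 96 and 92 bases before the start and share a base, and no other 2 matches of these motifs overlap in the windows shown. The stricter TCACNCCAC was in 0 of the 10 windows and in 1.24% of all windows, and the loose form was searched after that was seen. The E-box CACGTG was in 3 of the 10 windows (7.15% of all windows) and the GC box GGGCGG in 9 of the 10 (35.7% of all windows). These matches describe letters in the windows and say nothing of binding.

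In cultured cells, 7 of the 9 enzyme genes were lower in KD than in WT, 0 were higher, and Tm7sf2 and Sc5d did not pass the test. Of all 11905 genes tested, 5.57% were lower and 3.76% higher. The median log2 fold change of the 9 genes was -0.70, against 0.01 over all genes tested. Their summed level was 590 to 593 CPM in KD cells (591 ± 1.83, SD, n = 3), against 790 to 963 CPM in WT cells (898 ± 93.8, SD, n = 3). The 2 groups of libraries did not overlap for 7 of the genes, all lower in KD, where 15.8% of all genes tested did not overlap and were lower.

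Sqle had 141, 140 and 133 CPM in KD cells, against 197, 197 and 170 CPM in WT cells. Every KD library was below every WT library, and the log2 change was -0.45 (SE 0.09, adjusted p = 0.01208). Lss, at the ring closure, had 54.0, 57.3 and 62.4 CPM in KD cells, against 112, 112 and 75.3 CPM in WT cells. WT replicate 3 stood close to the KD libraries for Lss without reaching them, and the fold change was -0.79 (SE 0.14, adjusted p = 0.00605).

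Cyp51 had 145, 142 and 149 CPM in KD cells, against 256, 261 and 223 CPM in WT cells. The KD values lay within a few CPM of one another and far below the WT values, a log2 change of -0.77 (SE 0.09, adjusted p = 6.1e-04). Cyp51 had the smallest adjusted p of the 9 genes in cells.

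Each of the 3 genes of the C4 demethylation complex passed the test and was lower in KD cells. Msmo1 had 86.5, 83.5 and 89.0 CPM in KD cells, against 155, 143 and 120 CPM in WT cells, with no overlap and a log2 change of -0.70 (SE 0.10, adjusted p = 0.002379). Nsdhl had 12.7, 11.5 and 14.4 CPM in KD cells, against 26.0, 22.8 and 15.9 CPM in WT cells. For Nsdhl, too, WT replicate 3 came close to the KD libraries, and the fold change was -0.75 (SE 0.18, adjusted p = 0.02384). Hsd17b7 had 32.2, 39.0 and 33.4 CPM in KD cells, against 52.5, 46.1 and 48.2 CPM in WT cells, with no overlap (log2 fold change -0.50, SE 0.11, adjusted p = 0.01994). The calls of Sqle, Nsdhl and Hsd17b7 were lost without WT replicate 1 (adjusted p = 0.08414, 0.1379 and 0.1144) or without KD replicate 1 (adjusted p = 0.06217, 0.08289 and 0.1028), and those of Sqle and Nsdhl also without WT replicate 2 (adjusted p = 0.05635 and 0.08446).

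The last steps and the C14 reductase gave different results. Dhcr7 had 34.8, 35.2 and 38.1 CPM in KD cells, against 69.1, 62.2 and 54.7 CPM in WT cells, a log2 change of -0.79 (SE 0.11, adjusted p = 0.0015). Sc5d had 84.2, 78.8 and 66.8 CPM in KD cells, against 92.4, 93.4 and 82.0 CPM in WT cells, and the groups overlapped (log2 fold change -0.23, SE 0.11, adjusted p = 0.1981). As a share of the 9-gene sum, Sc5d made up 11.3 to 14.2% in KD cells and 9.59 to 10.4% in WT cells. Tm7sf2 was the least abundant of the 9, with 2.66, 1.94 and 3.80 CPM in KD cells, against 2.80, 2.64 and 1.62 CPM in WT cells. Its groups overlapped and its log2 fold change was 0.24 with an SE of 0.32 (adjusted p = 0.6724), so neither a rise nor a fall was detectable at this depth.

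**Figure D1:**
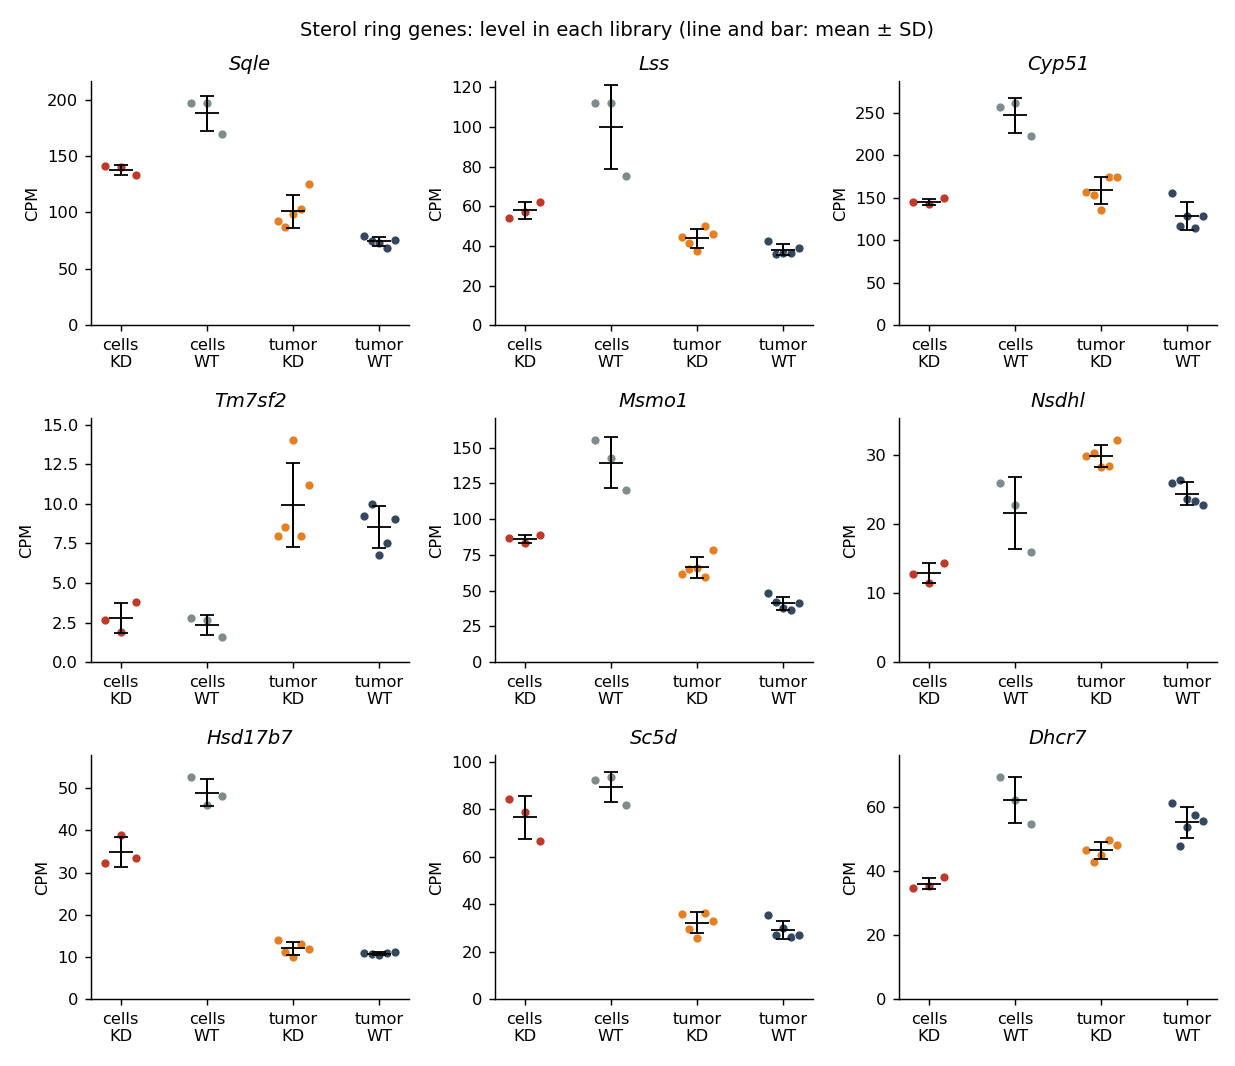
Level of each of the 9 enzyme genes in CPM (y axis, a separate scale for each gene) in every library of KD cells, WT cells, KD tumors and WT tumors (x axis); points are libraries and the line with bar is the mean ± SD. KD cells lie below WT cells without overlap for 7 genes, while KD tumors lie above WT tumors without overlap for Sqle, Msmo1 and Nsdhl.

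In tumors the direction was the other way for most of the arm. Of the 9 genes, 5 were higher in KD tumors (Sqle, Lss, Cyp51, Msmo1 and Nsdhl), 1 was lower (Dhcr7) and 3 did not pass the test (Tm7sf2, Hsd17b7 and Sc5d). Many genes differed between the tumor groups, 20.1% of the 13997 tested being higher and 18.3% lower in KD. The median log2 fold change of the 9 genes was 0.24, against 0.02 over all genes tested. The summed level was 460 to 560 CPM in KD tumors (501 ± 41.1, SD, n = 5), against 381 to 467 CPM in WT tumors (410 ± 34.0, SD, n = 5), and WT replicate 1 reached into the KD range. The libraries of the 2 groups did not overlap for 3 of the genes, all higher in KD, where 11.3% of all genes tested did not overlap and were higher.

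Msmo1 changed most, with 62.0, 65.1, 65.5, 59.8 and 78.7 CPM in KD tumors, against 48.1, 42.0, 37.6, 36.2 and 41.5 CPM in WT tumors. All 5 KD libraries were above all 5 WT libraries, and the log2 change was 0.70 (SE 0.10, adjusted p = 3.559e-04). Sqle had 92.3, 86.8, 98.3, 103 and 125 CPM in KD tumors, against 79.0, 74.7, 73.3, 68.9 and 75.6 CPM in WT tumors. Here as well the groups did not overlap (log2 fold change 0.46, SE 0.09, adjusted p = 0.002436). Nsdhl had 29.9, 30.3, 28.2, 28.4 and 32.1 CPM in KD tumors, against 25.9, 26.4, 23.6, 23.3 and 22.8 CPM in WT tumors, a smaller difference with no overlap (log2 fold change 0.30, SE 0.08, adjusted p = 0.01183).

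Cyp51 had 157, 153, 136, 174 and 174 CPM in KD tumors, against 155, 117, 128, 114 and 128 CPM in WT tumors. The groups overlapped through WT replicate 1 alone, and the log2 change was 0.32 (SE 0.09, adjusted p = 0.0148). Lss had 44.7, 41.3, 37.4, 50.2 and 45.8 CPM in KD tumors, against 42.5, 35.7, 36.5, 36.3 and 38.9 CPM in WT tumors. The groups overlapped for Lss, and the log2 change was 0.22 (SE 0.08, adjusted p = 0.04591). That call was lost under 6 of the 8 other settings and tools tried, with adjusted p between 0.0504 and 0.08919. It was also lost without any single tumor library other than WT replicate 1 or KD replicate 3, with adjusted p up to 0.1292.

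Hsd17b7 had 14.1, 11.2, 10, 13.2 and 11.9 CPM in KD tumors, against 10.9, 10.7, 10.5, 11 and 11.2 CPM in WT tumors, and its groups overlapped (log2 fold change 0.17, SE 0.10, adjusted p = 0.204). Sc5d had 35.8, 29.8, 25.9, 36.5 and 33.2 CPM in KD tumors, against 35.5, 26.9, 30.1, 26.2 and 27.3 CPM in WT tumors (0.15, SE 0.10, adjusted p = 0.2523). Tm7sf2 had 7.98, 8.54, 14, 7.95 and 11.2 CPM in KD tumors, against 9.25, 10, 6.79, 7.54 and 9.04 CPM in WT tumors (0.24, SE 0.18, adjusted p = 0.31). The KD and WT ranges overlapped in all 3 genes, and none passed.

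Dhcr7 was the exception among the genes that passed. It had 46.6, 42.8, 45.0, 49.7 and 48.0 CPM in KD tumors, against 61.1, 47.8, 53.8, 57.3 and 55.6 CPM in WT tumors. WT replicate 2 lay inside the KD range, and the log2 change was -0.23 (SE 0.08, adjusted p = 0.0281). The call was lost without WT replicate 1, 4 or 5 or KD replicate 2, with adjusted p between 0.05495 and 0.07034. As a share of the 9-gene sum, Dhcr7 made up 8.57 to 9.78% in KD tumors and 12.2 to 15% in WT tumors. Msmo1 made up 11.4 to 14.2% in KD tumors and 9.41 to 10.7% in WT tumors. For both shares the tumor groups did not overlap. A share also moves with the other genes of the sum, and the CPM of Dhcr7 itself overlapped between the groups.

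**Figure D2:**
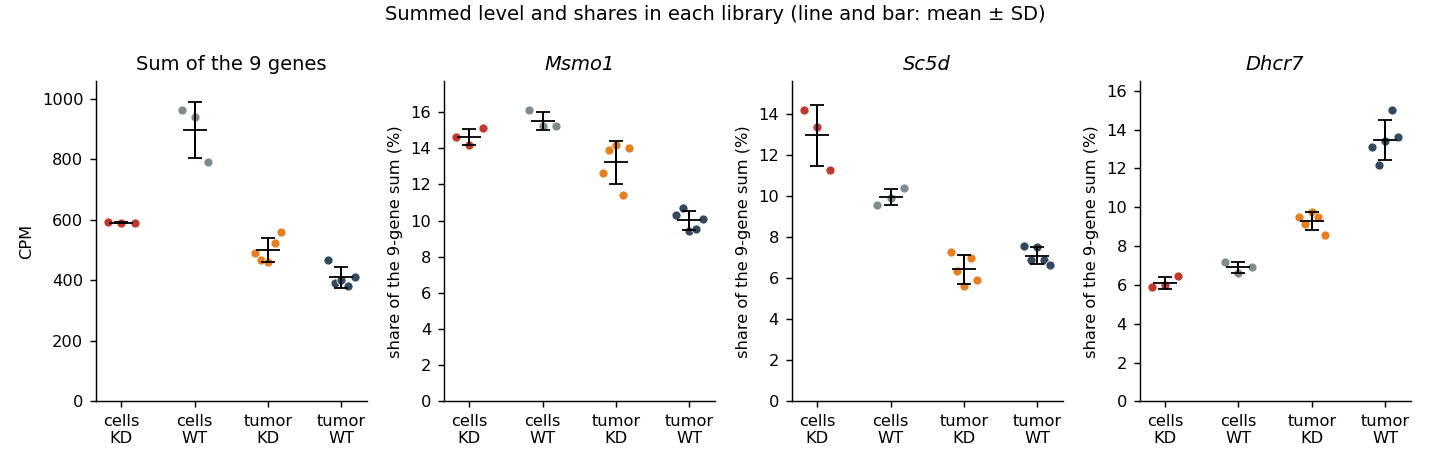
Summed CPM of the 9 genes (first panel) and the share of that sum made up by Msmo1, Sc5d and Dhcr7 in percent (other panels), by library, for KD cells, WT cells, KD tumors and WT tumors; the line with bar is the mean ± SD. The sum is lowest in WT tumors (381 to 467 CPM) and highest in WT cells (790 to 963 CPM), and Dhcr7 has a smaller share in KD tumors than in WT tumors.

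Markers of several host cell types differed between the same tumor groups, to be read against the 20.1% of all genes called higher and 18.3% called lower there. Summed leukocyte markers were 634 to 902 CPM in KD tumors and 459 to 884 CPM in WT tumors, with 3 of 5 markers called higher. Ptprc, which encodes the pan-leukocyte protein CD45, was 76.6 to 124 CPM in KD tumors and 39.5 to 59.6 CPM in WT tumors. T cell markers summed to 68.9 to 90.1 CPM in KD tumors and 25.5 to 61.9 CPM in WT tumors (4 of 5 higher), and natural killer cell markers to 47.6 to 70.9 CPM in KD tumors and 14.5 to 29.6 CPM in WT tumors (5 of 5 higher). Macrophage markers overlapped, at 1560 to 2850 CPM in KD tumors and 1590 to 2810 CPM in WT tumors (1 of 6 higher). Fibroblast markers were 2740 to 3480 CPM in KD tumors and 3670 to 4650 CPM in WT tumors (3 of 5 lower), a list that also summed to 1020 to 1230 CPM in KD cells and 1070 to 1790 CPM in WT cells. Endothelial markers were 61.4 to 101 CPM in KD tumors and 74.4 to 113 CPM in WT tumors (1 of 5 lower). Muscle markers were 87.0 to 241 CPM in KD tumors and 60.9 to 94.1 CPM in WT tumors (3 of 4 higher). Adipocyte markers were 0.577 to 7.27 CPM in KD tumors and 5.09 to 15.4 CPM in WT tumors, with 1 marker tested and 0 called. Every leukocyte, T cell and natural killer cell marker was listed at 0 in all cultured libraries, with the same limit on what a 0 means. The part of these cells in the tumor values of the 9 enzymes was not tested.

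Whether the KD effect differed between tumors and cells was tested as an interaction in 1 fit of all 16 libraries, over the 12581 tested genes with counts in both settings. The tumor effect minus the cell effect was above 0 for 7 of the 9 enzymes and below 0 for none of them by the test. Of all genes tested, 12.7% were called higher and 9.95% lower in this difference. The median difference of the 9 genes was 0.93 on the log2 scale, against -0.01 over all genes tested. Cells and tumors differ in setting and host content at once, which cannot be told apart here.

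Msmo1 had the largest difference among the 9 genes, 1.42 (SE 0.16, adjusted p = 2.59e-05), since it fell in KD cells and rose in KD tumors by about the same amount. Cyp51 followed with 1.12 (SE 0.14, adjusted p = 1.029e-04), Nsdhl with 1.08 (SE 0.18, adjusted p = 6.924e-04) and Lss with 1.03 (SE 0.16, adjusted p = 4.203e-04). For Sqle the difference was 0.93 (SE 0.14, adjusted p = 3.065e-04). Hsd17b7, whose tumor groups did not pass on their own, still differed between settings by 0.69 (SE 0.15, adjusted p = 0.004833). Dhcr7 was lower in KD in both settings, but less so in tumors, by 0.58 (SE 0.13, adjusted p = 0.005283). The difference was 0.40 for Sc5d (SE 0.17, adjusted p = 0.08492) and 0.02 for Tm7sf2 (SE 0.37, adjusted p = 0.9749). These 7 calls held under each of the other settings tried and without any single library.

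**Figure D3:**
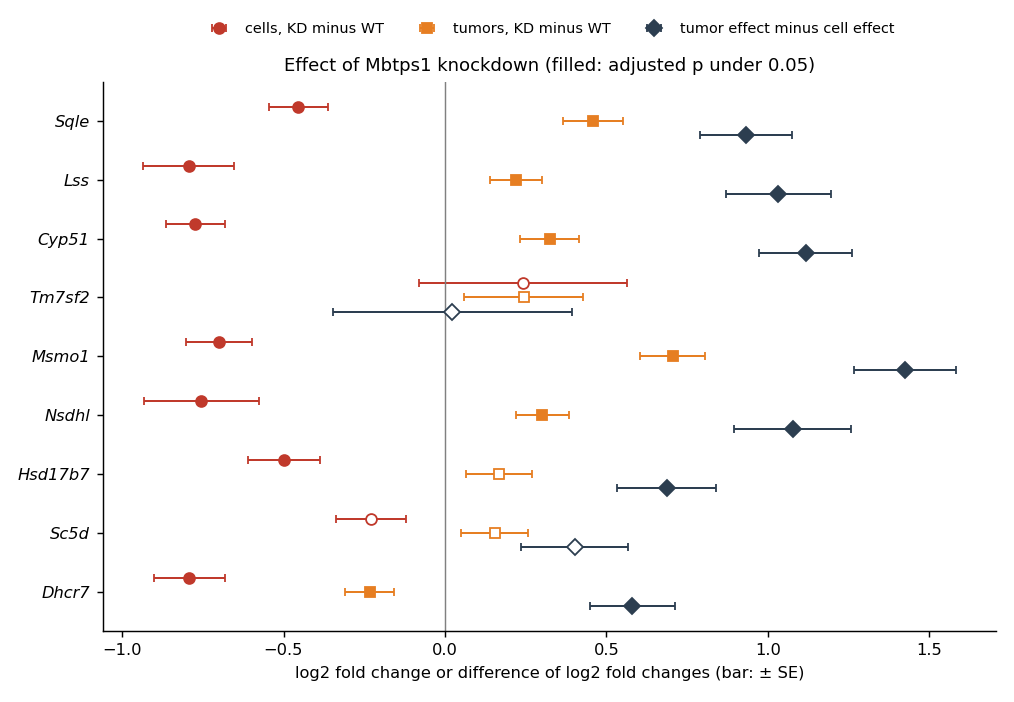
Log2 fold change of KD over WT in cells (circles) and in tumors (squares), and the tumor effect minus the cell effect (diamonds), for the 9 enzymes in pathway order from top to bottom; bars are ± SE and filled symbols have an adjusted p under 0.05. In 5 genes the cell and tumor symbols are both filled and on opposite sides of 0, Dhcr7 is below 0 in both, and the Tm7sf2 symbols are all open.

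WT tumors and WT cells were compared in the same fit to place the enzymes across settings. Of the 9 genes, 6 were lower in WT tumors, 2 were higher and Dhcr7 did not pass, where 36.2% of all genes tested were lower and 39.3% higher. The median log2 fold change of WT tumors over WT cells was -1.21 for the 9 genes and 0.05 for all genes. The 2 settings differ in host content, and whether they were sequenced together is not stated in the labels.

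Hsd17b7 differed most, with a log2 change of -2.05 (SE 0.11, adjusted p = 1.587e-12) and no more than 11.2 CPM in WT tumors, against at least 46.1 CPM in WT cells. Msmo1 stood at -1.64 (SE 0.11) and Sc5d at -1.49 (SE 0.11), while Lss, Sqle and Cyp51 had values of -1.27 (SE 0.11), -1.21 (SE 0.10) and -0.82 (SE 0.10). Tm7sf2 went the other way at 1.98 (SE 0.26, adjusted p = 1.078e-06), with 6.79 to 10 CPM in WT tumors and 1.62 to 2.80 CPM in WT cells. Nsdhl was higher by 0.30 (SE 0.13, adjusted p = 0.03699), a call that was lost with DESeq2 size factors (adjusted p = 0.06515), with library totals (adjusted p = 0.1592) and with DESeq2's own test (adjusted p = 0.05748), and also without WT cell replicate 2 or 3 or WT tumor replicate 1 or 2. Dhcr7 stood at -0.05 (SE 0.09, adjusted p = 0.6671).

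Divided by the merged length of all annotated exons of a gene, CPM per kilobase gave a rank order of the enzymes. That length ran from 2853 bases for Nsdhl to 10787 for Lss, so the order depends on the annotation as well as on the reads. By CPM alone Lss, with a mean of 99.8 in WT cells, stood above Sc5d, with 89.2. Cyp51 was highest in every group, at 32.9 ± 0.756 CPM per kilobase in KD cells and 55.9 ± 4.73 in WT cells (SD, n = 3 each), and at 36.0 ± 3.65 in KD tumors and 29.0 ± 3.69 in WT tumors (SD, n = 5 each). Sqle came next in all 4 groups and did not overlap with its neighbours, at 24.9 ± 0.826 CPM per kilobase in KD cells and 33.9 ± 2.79 in WT cells, and at 18.2 ± 2.65 in KD tumors and 13.4 ± 0.666 in WT tumors. Tm7sf2 was lowest in all 4 groups, at 0.636 ± 0.213 CPM per kilobase in KD cells and 0.534 ± 0.146 in WT cells. In tumors it reached 2.26 ± 0.602 in KD and 1.94 ± 0.302 in WT, which overlapped with Hsd17b7 at 2.37 ± 0.316 in KD and 2.12 ± 0.0528 in WT.

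Between these ends the order changed with the group. In KD cells it ran Sc5d, Msmo1, Hsd17b7, Dhcr7, Lss and Nsdhl, where Sc5d overlapped with Msmo1, Hsd17b7 with Dhcr7 and Lss with Nsdhl. In WT cells it ran Msmo1, Sc5d, Dhcr7, Hsd17b7, Lss and Nsdhl, and each neighbouring pair from Dhcr7 down to Nsdhl overlapped. In KD tumors it ran Msmo1, Nsdhl, Dhcr7, Sc5d, Lss and Hsd17b7, with overlap of Msmo1 with Nsdhl and of Dhcr7 with Sc5d. In WT tumors it ran Dhcr7, Nsdhl, Msmo1, Sc5d, Lss and Hsd17b7, with overlap of Dhcr7 with Nsdhl and of Msmo1 with Sc5d. Msmo1 thus stood above Dhcr7 in KD tumors at 10.8 ± 1.20 CPM per kilobase against 7.98 ± 0.457, and below it in WT tumors at 6.69 ± 0.756 against 9.47 ± 0.842.

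The mevalonate arm, which makes squalene from acetyl-CoA, was read beside the ring arm. In cells 6 of its 10 genes were lower in KD, 0 were higher and 4 did not pass, with a median of -0.51, where 5.57% of all genes were lower. In tumors 2 were higher, 0 were lower and 8 did not pass, with a median of 0.06, and 2 of 10 is close to the 20.1% of all genes called higher there. Hmgcs1, the HMG-CoA synthase, had a log2 change of -0.80 (SE 0.13, adjusted p = 0.004271) in cells and 0.30 (SE 0.09, adjusted p = 0.02036) in tumors. Idi1, the isopentenyl isomerase, and Fdft1, the squalene synthase that feeds Sqle, fell in KD cells by 0.79 and 0.57, with tumor values of 0.08 and 0.05 that did not pass. The interaction passed for 5 of the 10 genes, all above 0, with a median of 0.59, where 12.7% of all genes were called higher and 9.95% lower.

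Other genes of the ring steps, the enzymes Ebp and Lbr with electron carriers and a scaffold, were read next. Of 8 tested in cells 1 was lower in KD, 0 were higher and 7 did not pass, where 5.57% of all genes were lower. In tumors 3 were higher, 1 was lower and 4 did not pass, where all genes gave 20.1% higher and 18.3% lower. Ebp, the sterol isomerase, had a value of 0.08 in cells (adjusted p = 0.8022) and 0.34 in tumors (SE 0.11, adjusted p = 0.02445). Lbr, which shares the C14 reduction with Tm7sf2, had -0.28 in cells (SE 0.08, adjusted p = 0.05899) and 0.29 in tumors (SE 0.08, adjusted p = 0.01077). Cyb5r3, the cytochrome b5 reductase, was lower in KD tumors, at -0.87 (SE 0.10, adjusted p = 8.006e-05), with a value of 0.16 in cells (adjusted p = 0.3361). The interaction passed for Lbr, at 0.58, and for Cyb5r3, at -1.01.

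Among genes of sterol uptake, sensing and export, 14 of 20 could be tested in cells, where 4 were lower in KD, 0 higher and 10 did not pass, against 5.57% lower over all genes. In tumors 3 of 19 were higher, 5 lower and 11 did not pass, shares near the 20.1% and 18.3% of all genes. Insig1, the sterol sensor whose own gene is an SREBP target, had 69.8 to 82.2 CPM in KD cells against 112 to 156 CPM in WT cells, and 54.5 to 74.2 CPM in KD tumors against 45.1 to 59.3 CPM in WT tumors. Its log2 change was -0.93 (SE 0.13, adjusted p = 0.001493) in cells and 0.37 (SE 0.10, adjusted p = 0.01179) in tumors, an interaction of 1.31 (SE 0.17, adjusted p = 1.179e-04). Srebf2, which encodes SREBP2, had a log2 change of -0.23 in cells (SE 0.10, adjusted p = 0.1733) and -0.25 in tumors (SE 0.08, adjusted p = 0.02062). Scap, the escort, had 0.11 in cells (adjusted p = 0.4561) and -0.45 in tumors (SE 0.11, adjusted p = 0.006867). Nr1h3, which encodes the oxysterol receptor LXR alpha and is listed at 0 in all cultured libraries, was higher in KD tumors by 0.89 (SE 0.21, adjusted p = 0.005564).

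**Figure D4:**
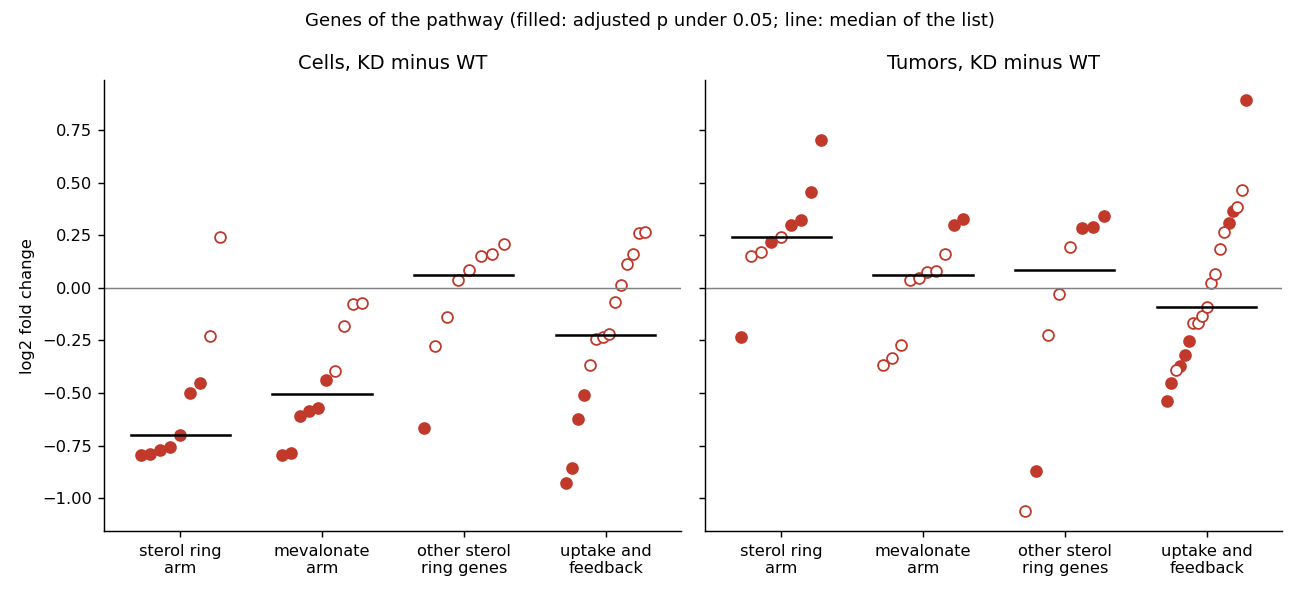
Log2 fold change of KD over WT (y axis) for each tested gene of the 9-gene ring arm, the mevalonate arm, the other sterol ring genes and the uptake and feedback genes (x axis), in cells (left) and in tumors (right); filled points have an adjusted p under 0.05 and the line is the median. The median is -0.70 for the ring arm and -0.51 for the mevalonate arm in cells, and 0.24 and 0.06 in tumors.

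The genes with a profile most like that of the arm were sought among 9512 genes with a mean of at least 5 CPM in every group, by the root mean square difference between centred log2(CPM + 1) profiles over the 16 libraries. The 5 nearest that are not members were Gtdc1 (0.0917), Bcl2 (0.104), Mmd (0.115), Galnt1 (0.128) and Tmem254 (0.129). Hmgcs1 of the mevalonate arm was at rank 33 with 0.157. Among the members themselves Cyp51 was nearest to the mean profile (0.111) and Tm7sf2 farthest (1.01), with Hsd17b7 at 0.648 and Nsdhl at 0.558 between them. Every member other than Cyp51 lay farther from the mean than these 5 genes, with Lss the next member at 0.231. A gene near the mean profile is therefore not shown to be like single members. The nearest gene, Gtdc1, had 8.24 to 8.91 CPM in KD cells and 9.27 to 14.6 CPM in WT cells, and 6.98 to 8.52 CPM in KD tumors and 5.96 to 8.02 CPM in WT tumors.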

How the data were processed

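RNA was measured by sequencing in 3 KD and 3 WT libraries of MC38 cells and 5 KD and 5 WT libraries of MC38 tumors, grouped by title and genotype label. Per the labels' protocols, RNA was extracted with Trizol and mRNA was captured on beads. The deposited values are whole-number read counts per gene symbol that the authors did not normalise. Among the tools in the submitters' processing notes are the aligner STAR 2.7.1a and the counter HTSeq 0.13.5, with cutadapt 1.18. The notes give the human build hg38, although the symbols are of mouse. The mouse build and the use of strand are not given in the sources read here. No value column lacked a sample (0).

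Counts were tested with edgeR 4.0.16 in R 4.3.3 (TMM, filterByExpr, robust glmQLFit, glmQLFTest), each comparison on its own libraries, with Benjamini-Hochberg adjustment. Low counts removed 1109 genes from the cell fit and 1277 from the tumor fit. The interaction and WT tumors against WT cells used all 16 libraries over 12692 symbols with counts in both settings. Common dispersions had square roots of 0.1161 (cells) and 0.159 (tumors). Replicates of a group always differed beyond counting noise (chi-square per degree of freedom at least 6.096). The largest value was 129.6, between KD tumor replicates 1 and 3. KD tumor replicates 3 and 5 were nearer each other (24.36) than either was to replicate 1, 2 or 4 (52.8 to 129.6). CPM used the library totals, and exon lengths came from GENCODE M21 (GRCm38). The scripts were tested on simulated data. Alternatives were DESeq2 1.42.0 size factors and Wald test, library totals, no filter, a stricter filter (1 CPM and 10 counts), limma 3.58.1 voom, a replicate block, 1 fit of all libraries and leaving out each library. Guide counts, also deposited as whole numbers, were set as log2 of CPM + 1 for guides with at least 20 reads. Members and lists were chosen with earlier results of these data known. Named genes were the 9 members, Mbtps1, Insig1, Srebf2, Scap, up to 4 genes with the smallest p of each other list per comparison, a few cell markers and the 5 nearest profiles. Some genes that this rule takes are not reported here.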

Additional observations from a re-analysis of the deposited data

Results flagged for a closer look

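The effect of KD differed between tumors and cells, by the interaction test, in 7 of the 9 enzymes. Over all genes tested, 12.7% were called higher and 9.95% lower in this difference. Log2 differences were 0.93 for Sqle, 1.03 for Lss, 1.12 for Cyp51, 1.42 for Msmo1, 1.08 for Nsdhl, 0.69 for Hsd17b7 and 0.58 for Dhcr7. Of the other pathway genes described, the difference was above 0 for Fdft1 (0.64), Hmgcs1 (1.11), Idi1 (0.89), Insig1 (1.31), Lbr (0.58) and Stard4, which encodes a cytosolic sterol carrier (0.83). It was also above 0 for Lpin1 (0.71) and for Mbtps1 itself (0.65). It was below 0 for Cyb5r3 (-1.01), Nr1h2, which encodes the oxysterol receptor LXR beta (-0.56), and Scap (-0.55).

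Single tumor libraries stood far from the others of their group in 6 of 60 gene and group checks, where chance gives about 1 in 20. The cell groups, with fewer libraries, were not checked. A check of single libraries can miss libraries that stand apart together. None of the libraries that stood apart did so for a member of the ring arm, a result that covers tumors only. WT tumor replicate 1 was high for Hmgcs1 (90.5 CPM) and Insig1 (59.3 CPM), and WT tumor replicate 2 was high for Ggps1, which makes geranylgeranyl diphosphate (27.3 CPM). KD tumor replicate 4 was high for Por, the reductase that feeds electrons to P450 enzymes (74.5 CPM), and for Soat1, which esterifies cholesterol (93.3 CPM). KD tumor replicate 2 was low for Lpin1, a phosphatidate phosphatase (12.2 CPM).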

How the results depend on the processing

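In cells, 4 to 7 of the enzymes were lower when single libraries were left out (4 without WT replicate 1 or KD replicate 1), and 290 to 1531 genes were called in all, against 1111 with every library. Without WT replicate 1 the count was 290, without WT replicate 2 it was 466 and without KD replicate 1 it was 330. Same-numbered KD and WT libraries did not deviate together (r between -0.276 and 0.0478 in cells, and between -0.277 and 0.19 in tumors). Tumor libraries with unlike numbers had r from -0.523 to 0.541. With so few libraries per group, this check cannot settle whether the numbers pair samples. A replicate block gave 508 genes in cells, with 5 enzymes lower (Nsdhl, adjusted p = 0.06139, and Hsd17b7, adjusted p = 0.06062, did not pass), and 0 instead of 1 enzyme lower in tumors (Dhcr7 adjusted p = 0.05156). Leaving out single tumor libraries gave 0 to 1 enzymes lower in KD tumors and 4 to 5 higher. The interaction called 1667 to 3359 genes with single libraries left out, against 2850, with 1855 without WT cell replicate 3 and 1667 without KD cell replicate 3; 7 or 8 enzymes were called, Sc5d being added without WT tumor replicate 1 (adjusted p = 0.0352) or KD tumor replicate 3 (adjusted p = 0.03882). For WT tumors against WT cells, 1 enzyme instead of 2 was higher with DESeq2 size factors, library totals and the DESeq2 Wald test, and 1 to 2 were with single libraries left out. Tm7sf2 changed sign in cells without KD replicate 3 (single libraries left out gave -0.036 to 0.44), and in the interaction with library totals (-0.020) and without any of 8 single libraries (-0.17 to 0.30 over all 16). Dhcr7 changed sign for WT tumors against WT cells without WT cell replicate 1 (-0.12 to 0.041 over those left out). None of these sign changes passed the test. The cause was not tested. The calls of Lss, Cyp51, Msmo1 and Dhcr7 in cells and of Sqle, Cyp51, Msmo1 and Nsdhl in tumors held in every setting run. Depth limits Tm7sf2 most, at 1.62 to 3.80 CPM in cells.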

Other observations

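The series also holds a pooled CRISPR screen in MC38 cells, with 1 guide library from Rag1-KO mice, which lack T and B cells, and 1 from C57BL/6 mice, so no test was possible. Of the 9 enzymes, 3 had guides in the table used here, 4 each. The median log2 ratio of guide abundance in Rag1-KO over C57BL/6 was 0.261 for Hsd17b7, 0.403 for Msmo1 and -0.243 for Sc5d. Over the 18108 guides with at least 20 reads the median was -0.123, with a range from the 5th to the 95th percentile of -1.55 to 1.47. The 4 Msmo1 guides had log2 ratios of 1.09, 3.29, -0.609 and -0.284, and the one at 3.29 had 334 reads in the Rag1-KO library against 24 in the C57BL/6 library. Guides to 1 gene thus differed from one another by more than the medians of these genes differed from that of all guides.

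The hexamer CTCGGA was in the 3′ UTR of 2 of the 9 enzymes, Lss and Dhcr7, and in that of 14.7% of 10974 genes tested in cells. Among all tested genes with it, 14.9% were lower in KD cells, against 4.26% of those without it. The genes with and without it were not matched on UTR length or expression level. The hexamer was chosen with earlier results of these data known, and its part in the fall of Lss and Dhcr7 was not tested.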
